A study of Mus musculus with 17 samples.

Results

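The comparison described here asks which genes take a different step from the DN2 to the DN3a stage of thymocyte development when an Lmo2 transgene is present, and which of them step in the opposite direction. It rests on 11 of the 17 libraries of the series, all those labelled young, picked by the names of their columns in the combined count table. These were 2 wild-type DN2, 3 wild-type DN3a, 3 Lmo2-transgenic DN2 and 3 Lmo2-transgenic DN3a libraries. All mice were C57BL/6 and 2.5 weeks old, except that wild-type DN3a replicate 3 came from a mouse of 3 weeks, and each of the 4 groups held both sexes. 5 mice gave a library of each stage, of which 2 were wild-type and 3 transgenic. The promoter that drives the transgene, the number of founder lines and the gates that defined DN2 and DN3a are absent from the labels used here. A step is the level in DN3a minus the level in DN2 on the log2 scale, and the interaction is the transgenic step minus the wild-type step. A positive interaction therefore means that the step was more upward in transgenic cells.

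Thymocytes that carry neither CD4 nor CD8 are called double negative (DN). DN2 cells divide and still carry KIT and CD44, while DN3a cells have lost both, have committed to the T lineage, rearrange the gene of the T cell receptor beta chain and divide little until a pre-T cell receptor (pre-TCR) signals. LMO2 is a nuclear adaptor that binds no DNA itself but joins LYL1 or TAL1, E proteins, GATA factors and LDB1 into one complex. It is made in blood stem and progenitor cells, is normally switched off as thymocytes commit, and causes T cell leukaemia when it is not. E proteins such as E2A and HEB bind E-box sequences and switch on T lineage genes.

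Genes of mitosis, DNA replication, the T cell receptor complex and the interferon response were among those whose step differed with the transgene, and the promoters of 5 of them are shown because these groups recur in the results. CAGGTG was searched as the E-box of E proteins, and the other 3 motifs were chosen after the results were seen. RefSeq promoter windows (GRCm38.p6, 250 bases before to 50 after the start, in the direction of the gene) were at hand for 10166 of the 13534 genes tested. The windows of Mki67, which encodes the proliferation antigen Ki-67, of Top2a (DNA topoisomerase II alpha) and of Cdk1 (the mitotic kinase) are shown with CCAAT and TTTGAA, read on both strands, in capitals. CCAAT is the box bound by NF-Y, and TTTGAA is the cell cycle homology element of genes expressed in G2 and M phase.
Mki67, chr7:135716330-135716629, minus strand: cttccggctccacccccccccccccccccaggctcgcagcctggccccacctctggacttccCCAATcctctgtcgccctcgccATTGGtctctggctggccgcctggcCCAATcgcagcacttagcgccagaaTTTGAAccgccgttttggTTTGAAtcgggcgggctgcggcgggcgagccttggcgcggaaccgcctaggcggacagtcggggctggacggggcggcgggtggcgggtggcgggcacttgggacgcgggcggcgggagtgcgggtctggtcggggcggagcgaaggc
Top2a, chr11:99024140-99024439, minus strand: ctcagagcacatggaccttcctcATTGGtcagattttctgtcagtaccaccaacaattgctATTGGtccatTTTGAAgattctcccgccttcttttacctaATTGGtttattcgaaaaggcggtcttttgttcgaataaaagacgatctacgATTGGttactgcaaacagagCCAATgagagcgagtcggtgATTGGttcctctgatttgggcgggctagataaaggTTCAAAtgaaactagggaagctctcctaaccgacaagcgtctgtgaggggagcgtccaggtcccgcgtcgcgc
Cdk1, chr10:69352863-69353162, minus strand: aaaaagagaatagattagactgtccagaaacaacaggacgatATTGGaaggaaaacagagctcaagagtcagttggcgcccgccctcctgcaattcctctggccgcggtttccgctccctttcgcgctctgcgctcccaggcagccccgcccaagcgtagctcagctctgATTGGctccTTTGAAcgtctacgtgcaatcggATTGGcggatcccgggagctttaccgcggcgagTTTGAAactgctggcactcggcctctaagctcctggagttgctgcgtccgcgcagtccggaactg
Isg15, an interferon-induced ubiquitin-like protein gene, is shown with the core of the interferon-stimulated response element, GAAA repeated after any 2 bases, in capitals where its 3 overlapping matches lie.
Isg15, chr4:156200769-156201068, minus strand: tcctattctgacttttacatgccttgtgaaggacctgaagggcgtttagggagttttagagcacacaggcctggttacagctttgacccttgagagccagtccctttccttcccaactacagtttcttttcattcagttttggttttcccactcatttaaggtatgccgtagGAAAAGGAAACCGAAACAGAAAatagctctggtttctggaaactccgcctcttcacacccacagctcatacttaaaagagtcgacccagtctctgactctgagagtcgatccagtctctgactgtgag
Cd3g, which encodes the CD3 gamma chain, is shown with the E-box CAGGTG, read on both strands, in capitals.
Cd3g, chr9:44980382-44980681, minus strand: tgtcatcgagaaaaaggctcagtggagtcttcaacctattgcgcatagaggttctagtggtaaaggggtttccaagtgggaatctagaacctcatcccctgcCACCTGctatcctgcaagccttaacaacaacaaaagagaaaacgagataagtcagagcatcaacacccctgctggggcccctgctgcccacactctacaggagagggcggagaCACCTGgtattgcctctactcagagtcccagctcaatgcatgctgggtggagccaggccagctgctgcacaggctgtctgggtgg

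TTTGAA stood in 12.2% of all tested windows, in 16 of the 22 windows of G2 and M phase genes (72.7%) and in 51 of 164 windows (31.1%) of genes whose step was downward in wild-type and upward in transgenic cells. CCAAT was in 39.2% of all tested windows, in 19 of 22 (86.4%) of those of G2 and M phase genes and in 14 of 20 (70.0%) of those of S phase genes. The core of the interferon-stimulated response element was in 3.1% of all tested windows and in 8 of 14 (57.1%) of those of interferon response genes. CAGGTG was in 17.4% of all tested windows, in 17.1% of those of genes with a higher interaction and in 18.9% of those with a lower one, so these shares lay close together. It was in 8 of 21 windows (38.1%) of T lineage genes and in 5 of 14 (35.7%) of E protein regulated genes, lists that share members. The 5 windows printed all hold the motifs marked. Among windows not printed, that of Ptcra held 0 matches of CAGGTG, and that of Bub1 2 of CCAAT and 0 of TTTGAA. Those of Ccnb2 (3 of CCAAT, 2 of TTTGAA), Oas3 (1 of the interferon core) and Rag1 (1 of CAGGTG) held matches. A match is only a run of letters in this window, and no binding was measured.

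Before the steps, the labels were checked against the genes that define the groups. Lmo2 (chr2:103957903-103981878) had 0 and 0.401 CPM (counts scaled to a common library size) in the wild-type DN2 libraries and 0.358, 0.396 and 0.0919 CPM in the wild-type DN3a libraries. Transgenic libraries had 156, 107 and 92.4 CPM in DN2 and 31.8, 35.3 and 39.4 CPM in DN3a. Lmo2 was thus at or near 0 in every wild-type library and fell from DN2 to DN3a in transgenic cells, with a fitted step of -1.74 ± 0.35 (SE; adjusted p = 0.00109). Lmo2 is measured through the transgenic groups, and its wild-type step rests on levels at or near 0. Its fitted interaction of -2.27 therefore describes it, and no test is given. Kit and Cd44, surface markers of DN2, were lower in DN3a in both genotypes. Kit was at 152 and 126 CPM in wild-type DN2 and 65.9, 56.8 and 80.1 CPM in wild-type DN3a, and at 489.5, 616 and 653 CPM in transgenic DN2 and 129, 136 and 102 CPM in transgenic DN3a, the highest of the 4 groups being transgenic DN2. The step of Cd44 was -2.56 in wild-type and -3.68 in transgenic cells. Il2ra, the CD25 gene carried at both stages, was at 1911 and 1796 CPM in wild-type DN2 and 1760.0, 2075 and 2266 CPM in transgenic DN2, overlapping its DN3a levels of 1900.0, 1999 and 2121 CPM and 2311, 1923 and 1902 CPM, and had an interaction of -0.11 ± 0.28 (adjusted p = 0.824).

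Libraries held 7183303 to 11360308 counted reads, and 13534 of 18760 genes with a read passed the filter on low counts. The library of wild-type DN2 replicate 1 differed from the rest in that 13028 genes had a read, against 14474 to 15680 in the other young libraries. An unnamed feature of 5868 bases took 3.81, 16.6 and 12.4% of the reads of the transgenic DN2 libraries and 13.9, 7.13 and 0.876% of those of transgenic DN3a, against 0.306 to 4.37% in wild-type young libraries. With its share as a covariate, 2304 genes were called in the interaction and 189 reversed, against 2834 and 246 without it. Of the gene lists below, that covariate moved the count of called members by over 1.5 times for cholesterol synthesis (11 to 7), stem and progenitor (5 to 3), early response (4 to 2) and cell cycle inhibitor genes (5 to 3). Values without the 3 young libraries in which the feature exceeded 8% stand beside the counts they change. Wild-type old DN3a replicate 1, at 9.48%, was left out of that fit as well. A fit that leaves 1 library in a group, as without either wild-type DN2 replicate, assumes that it varies like the other groups. Every value is from RNA of many cells together, so fewer cells of a kind and less of the RNA per cell cannot be told apart. All tests are edgeR's quasi-likelihood test with p-values adjusted by Benjamini-Hochberg over the 13534 genes, a value is called at an adjusted p under 0.05, and ± gives the SE of a fitted log2 value.

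The step differed with the transgene for 2834 genes, 20.9% of those tested. It was more upward in transgenic cells for 1484 genes (11%) and more downward for 1350 (9.97%). The median absolute interaction of these genes was 1.48, with 2272 genes at 1 or more and 164 at 4 or more, and the smallest called was 0.57. Over all tested genes the median interaction was -0.06. The wild-type step itself was called for 888 genes (6.56%), 396 upward (2.93%) and 492 downward (3.64%). The transgenic step was called for 3518 genes (26%), 1731 upward (12.8%) and 1787 downward (13.2%). These 2 counts rest on different precision, because the median SE of a step was 0.28 in wild-type cells, with 2 DN2 libraries, and 0.25 in transgenic cells, with 3. Without wild-type DN2 replicate 1, 1654 genes were called in the interaction, 1562 of them among the 2834, and the fitted sign was the same for 2833 of the 2834.

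**Figure D1:**
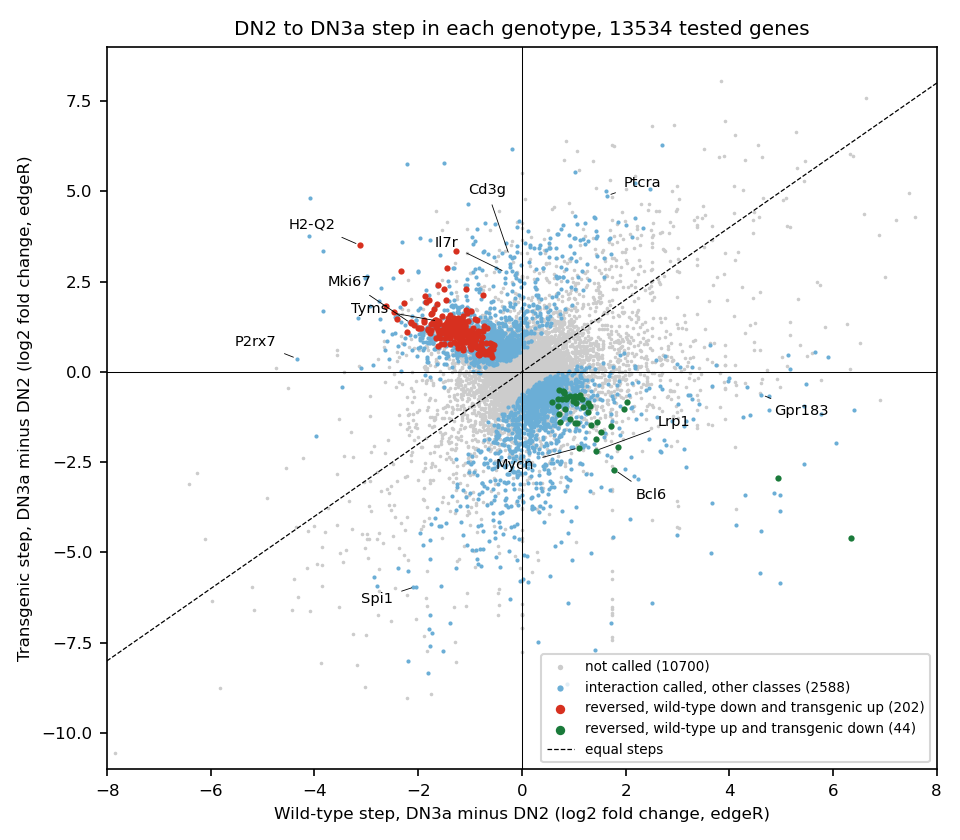
Fitted step from DN2 to DN3a in wild-type cells (x axis, log2 fold change) against that in transgenic cells (y axis, log2 fold change), 1 point per tested gene, with 3 of 13534 genes outside the axes. Grey points are genes without a called interaction, blue points the other called genes, red points the 202 genes down in wild-type and up in transgenic cells and green points the 44 genes up in wild-type and down in transgenic cells. The dashed line marks equal steps. Red points lie at upper left and green points at lower right, and many blue points lie close to the vertical axis, where the wild-type step is near 0.

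For most of the 2834 genes only the transgenic step was called. For 1690 of them (59.6%) the transgenic step was called and the wild-type step was not. The reverse held for 261 (9.2%), and for 589 (20.8%) neither step passed on its own. A step that was not called is not shown to be absent. Fitted steps, called or not, had opposite signs for 2367 of the 2834 genes, which is 17.5% of all tested genes. Both steps were called in the same direction for 48 genes, and in 47 of these the transgenic step was the larger, with medians of 1.18 in wild-type and 2.8 in transgenic cells. Split by stage, the genotypes differed in DN2 but not by the test in DN3a for 1719 of the 2834 genes (60.7%), and in DN3a but not by the test in DN2 for 358 (12.6%). A further 134 genes were lower in transgenic than in wild-type cells at DN2 and higher at DN3a, and 119 were higher at DN2 and lower at DN3a. As background, the genotype difference was called for 3436 genes (25.4%) in DN2 and 1328 (9.81%) in DN3a. These splits use the same libraries as the interaction and describe it rather than add to it. Of the 492 genes with a called downward step in wild-type cells, 364 (74.0%) had a called interaction and 351 (71.3%) a fitted transgenic step in the other direction. Of the 396 with an upward step, 191 (48.2%) had a called interaction and 135 (34.1%) a fitted transgenic step in the other direction. The difference between these shares was not tested.

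Steps taken within 1 mouse could be compared for the 5 mice that gave both stages. They did not overlap between the 2 wild-type and the 3 transgenic mice for 2807 of the 2834 called genes (99.0%), against 50.2% of all tested genes. Both sets come from the libraries that made the calls, so the first share describes them and tests nothing.

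A total of 246 genes (1.82% of those tested) reversed direction, meaning that the interaction and both steps were called and the steps had opposite signs. In 202 genes (1.49%) the wild-type step was down and the transgenic step up, with medians of -1.24 and 1.14. In 44 genes (0.325%) the wild-type step was up and the transgenic step down, with medians of 1.05 and -0.91. Steps within a mouse had one sign in both wild-type mice and the other in all 3 transgenic mice for 240 of the 246 (97.6%), against 21.4% of all tested genes. This share, too, describes genes chosen for opposite steps in the same libraries and tests nothing. By levels, 74 of the 202 genes were lower in transgenic DN2 and higher in transgenic DN3a than in the matching wild-type cells, 121 differed between genotypes by the test in DN2 only and 7 in DN3a only. The number that reversed depended on single libraries of both genotypes. It was 0 without wild-type DN2 replicate 1, 65 without wild-type DN3a replicate 1, 21 without wild-type DN3a replicate 2, 394 without transgenic DN2 replicate 1, 123 without transgenic DN2 replicate 2 and 163 without transgenic DN3a replicate 2. Without wild-type DN2 replicate 1, 10 genes had a called wild-type step, and 245 of the 246 genes still had fitted steps of opposite sign. Without the 3 libraries rich in the unnamed feature, a check added after the data were seen, the count was 77.

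Cell cycle genes made up 17 of the 21 listed genes that went down in wild-type and up in transgenic cells. Of 26 G2 and M phase genes 26 were tested, all 26 had a higher interaction in transgenic cells against 11% of all genes, and 8 reversed outright. Their median step was -1.72 in wild-type and 1.11 in transgenic cells. By the test 21 of 26 were down in wild-type cells, beside 3.64% of all genes, and 8 of 26 up in transgenic cells, beside 12.8%. Of 25 S phase and replication genes, 24 were higher in the interaction and 9 reversed, beside 11% and 1.82% of all genes, with median steps of -0.96 and 1.05. The one not called was Mcm2, a subunit of the replicative helicase, at 0.73 ± 0.42. Neither list held a gene with a lower interaction. Leaving out single libraries kept 22 to 26 of the G2 and M phase genes and 19 to 24 of the S phase genes called, and 21 and 20 stayed called without the libraries rich in the unnamed feature.

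Mki67 (chr7:135689784-135716450) was at 1975 and 1813 CPM in wild-type DN2 and 444, 249 and 597 CPM in wild-type DN3a. In transgenic cells it was at 358, 194 and 368 CPM in DN2 and 866, 919.9 and 557 CPM in DN3a. The stages did not overlap within either genotype, and they ran in opposite directions, while wild-type and transgenic DN3a overlapped each other. Within a mouse the step was -2.15 and -2.86 for the wild-type pair and 1.36, 1.52 and 1.23 for the 3 transgenic mice, and the interaction was 3.48 ± 0.63 (adjusted p = 0.00107). Top2a had 1208 and 1273 CPM in wild-type DN2 and 300.2, 211 and 546 CPM in DN3a, and 290.4, 161 and 359 CPM in transgenic DN2 and 576, 674 and 604 CPM in DN3a. Its interaction was 3.01 ± 0.53 (adjusted p = 0.000821), with a step of -1.81 ± 0.39 in wild-type and 1.20 ± 0.35 in transgenic cells. Nuf2, of the kinetochore, had the largest interaction of the G2 and M phase list at 3.51 ± 0.64 (adjusted p = 0.00107), followed by Mki67 and by Bub1, the spindle checkpoint kinase, at 3.33 ± 0.61 (adjusted p = 0.0012). Cdk1 gave 3.21 ± 0.62 (adjusted p = 0.00156). In Nuf2, Bub1 and Cdk1 wild-type DN3a replicate 3 was the highest wild-type DN3a library.

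Tyms (chr5:30038546-30073645), the thymidylate synthase gene, showed the largest interaction of the replication list at 3.01 ± 0.39 (adjusted p = 0.000106). It was at 142 and 120.3 CPM in wild-type DN2 and 40.6, 33.4 and 55.7 CPM in wild-type DN3a, and at 38.7, 18.8 and 29.2 CPM in transgenic DN2 and 70, 72.7 and 88.6 CPM in transgenic DN3a. Stages did not overlap within either genotype, and every transgenic DN3a library lay above every wild-type DN3a library. Prim1, the primase subunit that starts DNA strands, followed at 2.79 ± 0.43 (adjusted p = 0.000341), and Pcna, the sliding clamp of replication, stood at 2.00 ± 0.36 (adjusted p = 0.00107). Rrm2, of ribonucleotide reductase, had an interaction of 2.67 ± 0.53 (adjusted p = 0.00208), but only its transgenic step of 1.36 ± 0.36 was called.

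Regulators of the cycle outside these lists, chosen after their values were seen, also reversed. Foxm1, a transcription factor of mitotic genes, was at 127 and 155 CPM in wild-type DN2 and 46.3, 30.2 and 58.7 CPM in DN3a, against 41.8, 20.1 and 42 CPM in transgenic DN2 and 85.2, 100.4 and 66.6 CPM in DN3a. Mybl2, the gene of the transcription factor B-MYB, had an interaction of 2.66 ± 0.41 (adjusted p = 0.000302), and E2f8, a repressor of the E2F family, 3.13 ± 0.60 (adjusted p = 0.00157). Of the 19 listed cell cycle inhibitors and quiescence genes 18 were tested, 5 were lower in the interaction (9.97% of all genes were) and 1 was higher. The lower ones included Rbl2, the p130 pocket protein of resting cells, at -1.45 ± 0.27 (adjusted p = 0.00113). It was at 34.8 and 52 CPM in wild-type DN2 and 66.5, 68.6 and 75.6 CPM in DN3a, and at 91.1, 132 and 131 CPM in transgenic DN2 and 64.4, 70.3 and 75.5 CPM in DN3a, so that it reversed in the sense opposite to the mitotic genes. The count of 5 fell to 2 without wild-type DN3a replicate 2 and without the libraries rich in the unnamed feature, and to 3 without wild-type DN2 replicates 1 or 2, transgenic DN2 replicates 2 or 3, wild-type DN3a replicate 3 or transgenic DN3a replicate 1. The call of Rbl2 was lost without the libraries rich in the unnamed feature. Cdkn2c, the inhibitor p18, was the exception, at 21.8 and 12.4 CPM in wild-type DN2, 4.65, 3.36 and 8.73 CPM in wild-type DN3a, 7.63, 4.03 and 3.39 CPM in transgenic DN2 and 22.1, 30.2 and 29.1 CPM in transgenic DN3a. Its interaction of 4.02 ± 0.50 (adjusted p = 8.12e-05) went with the mitotic genes. Cdkn1a (p21) and Cdkn1b (p27) had interactions of -1.20 ± 0.66 and -0.05 ± 0.39, neither called.

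**Figure D2:**
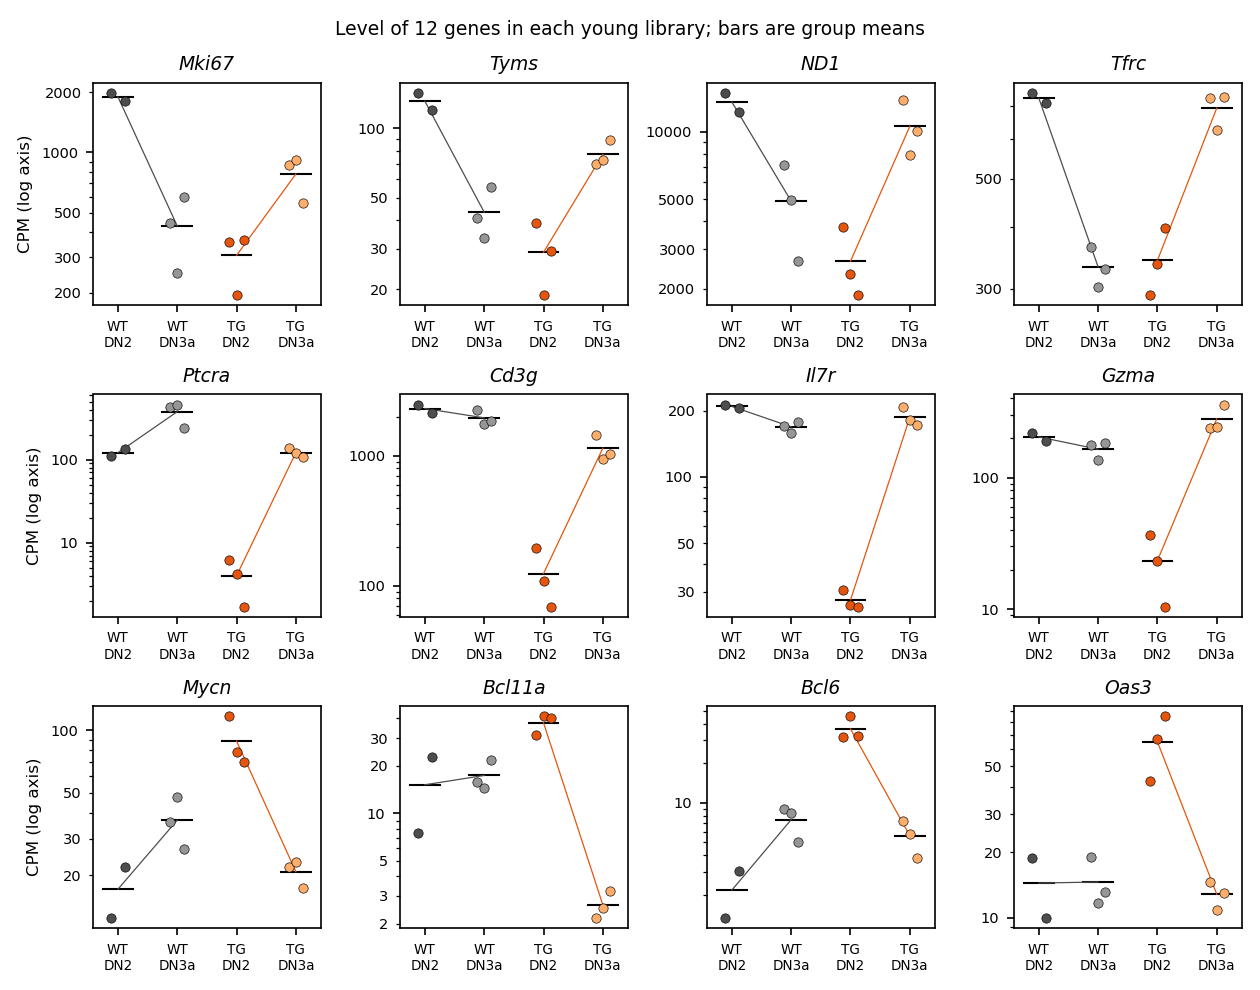
Level of 12 genes in CPM (y axis, log scale) in each young library, grouped on the x axis by genotype (WT, wild-type; TG, transgenic) and stage. Points are libraries, horizontal bars group means and lines join the 2 stages of a genotype. The upper row falls in wild-type and rises in transgenic cells, the middle row holds genes that are lowest in transgenic DN2, and the lower row genes that are highest in transgenic DN2.

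The transferrin receptor gene and many genes of ribosome production moved in the same sense. Tfrc (chr16:32608896-32632794), the receptor through which cells take up iron, was at 744 and 711 CPM in wild-type DN2 and 365, 303 and 329 CPM in wild-type DN3a. It was at 291, 337 and 398 CPM in transgenic DN2 and 727, 626 and 729.7 CPM in transgenic DN3a, so that the stages did not overlap within either genotype and ran in opposite directions. The step was -1.13 ± 0.23 in wild-type and 1.02 ± 0.21 in transgenic cells, and the interaction 2.15 ± 0.30 (adjusted p = 0.000177). Of 22 MYC and ribosome biogenesis genes, 14 had a higher interaction, beside 11% of all tested genes, and 1, Mycn, a lower one, with median steps of -0.27 and 0.78. The count of 14 fell to 9 without either wild-type DN2 replicate and to 8 without the libraries rich in the unnamed feature. Gnl3, the nucleolar protein nucleostemin, had the largest interaction of the 14 at 1.69 ± 0.36 (adjusted p = 0.00341), and was among those lost without the libraries rich in that feature. Myc itself rose in transgenic cells (0.75 ± 0.22, adjusted p = 0.0153), but its interaction of 0.54 ± 0.32 was not called (adjusted p = 0.24).

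Of 22 cholesterol synthesis genes, 11 had a higher interaction, beside 11% of all tested genes, and none a lower one. By the test 18 of 22 rose in transgenic cells, beside 12.8% of all genes, and 2 of 22 in wild-type cells, beside 2.93%. Cyp51, the lanosterol demethylase, was at 109.5 and 93.9 CPM in wild-type DN2 and 69.7, 69.7 and 90.9 CPM in DN3a, and at 37.2, 35.8 and 34.6 CPM in transgenic DN2 and 99.4, 92.1 and 113 CPM in DN3a. Transgenic DN2 was the low group and overlapped none of the other 3. The interaction was 1.91 ± 0.27 (adjusted p = 0.000186). The count of 11 was among the less stable, at 5 with each mouse as a block and at 4 without the libraries rich in the unnamed feature. It was 6 without wild-type DN2 replicate 1, wild-type DN3a replicate 2 or transgenic DN3a replicate 3, and 7 without wild-type DN2 replicate 2, transgenic DN2 replicates 2 or 3 or wild-type DN3a replicate 1.

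All 13 mitochondrially encoded protein genes had a higher interaction, beside 11% of all tested genes, with medians of -1.26 for the wild-type and 1.8 for the transgenic step. By the test 13 rose in transgenic cells, beside 12.8% of all genes, and 2 fell in wild-type cells, beside 3.64%. These 13 genes are transcribed together from the same circular genome, so they are not separate observations. ND1 (chrMT:2751-3707), a subunit of respiratory complex I, was at 14870.0 and 12290.0 CPM in wild-type DN2 and 7108, 4992 and 2650.0 CPM in wild-type DN3a. In transgenic cells it was at 3759, 2325 and 1874 CPM in DN2 and 13850.0, 7857 and 10040.0 CPM in DN3a. Wild-type DN3a ranged widely, with replicate 3 within the range of transgenic DN2, and the interaction was 3.46 ± 0.57 (adjusted p = 0.00054). ND4L also reversed (3.81 ± 0.56, adjusted p = 0.000253), whereas ND3 rose by 2.37 ± 0.47 in transgenic cells with no called wild-type step. As a share of all reads the mitochondrial genes took 12.8 ± 0.867% in wild-type DN2 (SD, n = 2), 6.18 ± 2.75% in wild-type DN3a (n = 3), 2.65 ± 0.956% in transgenic DN2 (n = 3) and 8.6 ± 1.92% in transgenic DN3a (n = 3). The unnamed feature was at its highest mean share, 10.9 ± 6.52% (SD, n = 3), where the mean mitochondrial share was lowest. Single libraries did not all follow these means. Transgenic DN2 replicate 2 had 16.6% of the feature and 2.25% mitochondrial reads, but transgenic DN3a replicate 1 had 13.9% and 10.4%. Without the 3 libraries in which that feature exceeded 8%, 8 of 13 stayed called, and with its share as a covariate in the fit all 13 did.

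Genes of the T lineage were a further group with higher interactions. Of 24 genes of T lineage commitment and the pre-TCR, 9 had a higher interaction, beside 11% of all tested genes, and none a lower one, while 14 rose in transgenic cells, beside 12.8%, and 4 in wild-type cells, beside 2.93%. The 9 were Cd3d, Cd3e, Cd3g, Gata3, Ptcra, Rag1, Sh2d1a, Thy1 and Zap70, of which Gata3, a T lineage factor, lost its call without wild-type DN2 replicate 1. No gene of the list reversed, and its median interaction was 0.37 against -0.06 for all genes. Ptcra (chr17:46755663-46763712), the pre-TCR alpha chain, was at 109 and 133 CPM in wild-type DN2 and 429.7, 459 and 242 CPM in wild-type DN3a. It was at 6.13, 4.19 and 1.70 CPM in transgenic DN2 and 137, 121 and 106 CPM in transgenic DN3a. The gene thus rose in both genotypes but from a far lower start in transgenic cells, with steps of 1.64 ± 0.35 and 4.88 ± 0.38 and an interaction of 3.24 ± 0.48 (adjusted p = 0.000262). All 3 transgenic DN3a libraries remained below all wild-type DN3a libraries.

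The CD3 chains carry the signal of the T cell receptor into the cell. Cd3g (chr9:44969572-44980431) was at 2482 and 2147 CPM in wild-type DN2 and 2263, 1773 and 1852 CPM in wild-type DN3a, a step of -0.24 ± 0.31 that was not called. In transgenic cells it went from 194, 109 and 69 CPM to 1461, 946 and 1036 CPM, a step of 3.21 ± 0.31, and the interaction was 3.44 ± 0.42 (adjusted p = 6.89e-05). Cd3e gave an interaction of 2.94 ± 0.35 (adjusted p = 5.75e-05) and Cd3d 2.90 ± 0.50 (adjusted p = 0.000741). Rag1 (chr2:101638252-101649532), the recombinase that cuts receptor genes, rose in both genotypes by 2.12 and 3.75, with an interaction of 1.63 ± 0.38 (adjusted p = 0.00581). Sh2d1a, the signalling adaptor SAP, was at 55.5 and 53 CPM in wild-type DN2 and 49.8, 56.6 and 74.3 CPM in DN3a, and at 18.7, 12.1 and 3.65 CPM in transgenic DN2 and 118, 119.7 and 145 CPM in DN3a. It ended above the wild-type level, with an interaction of 3.30 ± 0.51 (adjusted p = 0.000304). Bcl11b, the factor that seals T commitment, had an interaction of -0.02 ± 0.26 that was not called (adjusted p = 0.975), with fitted steps of 0.27 ± 0.19 in wild-type and 0.26 ± 0.17 in transgenic cells.

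The list of E protein regulated genes shared Ptcra, Rag1, Cd3g and Cd3e among its called members with the T lineage list. Of its 17 genes 7 were higher and 2 lower, beside 11% and 9.97% of all tested genes, with a median interaction of 1.39. Besides the shared genes the higher ones were Il7r, Id3 and Cd8a, and the lower ones Hes1 and Notch3. Il7r (chr15:9506159-9529941), the interleukin-7 receptor on which DN thymocytes depend, had the smallest adjusted p of the genes named here. It was at 213 and 205 CPM in wild-type DN2, 171, 158 and 178 CPM in wild-type DN3a, 30.6, 26.2 and 25.7 CPM in transgenic DN2 and 208, 181 and 172 CPM in transgenic DN3a. Only transgenic DN2 stood apart, and the interaction was 3.07 ± 0.26 (adjusted p = 2.76e-06). Cd8a, the CD8 alpha chain, had an interaction of 3.50 ± 0.85 (adjusted p = 0.0073) that became 2.31 and lost its call without wild-type DN2 replicate 1 (adjusted p = 0.147). The call of Id3, an inhibitor of E proteins, was lost without any of 9 of the 11 libraries. Of the E proteins themselves, Tcf3 (E2A) had an interaction of 0.08 ± 0.26 and was not called, and Tcf4 (E2-2) had -1.02 ± 0.25 (adjusted p = 0.00716), its call being lost without the libraries rich in the unnamed feature.

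Of 19 tested cytokine receptor genes, 4 had a higher and 1 a lower interaction, beside 11% and 9.97% of all genes. Their median was -0.07 beside -0.06 for all genes. Ifngr1, a chain of the interferon gamma receptor and one of the 4, was at 868 and 588 CPM in wild-type DN2 and 591, 384 and 477 CPM in DN3a, and at 101, 86.6 and 77.2 CPM in transgenic DN2 and 349.7, 319 and 343 CPM in DN3a. Its interaction was 2.52 ± 0.27 (adjusted p = 2.68e-05). Gzma (chr13:113093824-113100981), the protease granzyme A, was at 217 and 191 CPM and 176, 136 and 182 CPM in the wild-type stages and at 36.6, 23.2 and 10.4 CPM and 237, 244 and 359 CPM in the transgenic ones. The interaction of Gzma was 3.88 ± 0.47 (adjusted p = 6.35e-05). It was the only 1 of 8 tested natural killer and innate lymphoid genes called, beside 20.9% of all genes. The median interaction of those 8 was -1.14, but 4 of them had a group without a read. With 3 reads over the group standing for none, the median was -1.87. Il9r, the interleukin-9 receptor, ended highest in transgenic DN3a, at 38.6, 69.7 and 64.5 CPM against 20.7, 19.4 and 12.2 CPM in wild-type DN3a and 12.5, 9.98 and 11 CPM in transgenic DN2, with an interaction of 2.11 ± 0.48 (adjusted p = 0.00458). Epcam, an adhesion molecule, rose in both genotypes and more in transgenic cells, by 1.42 and 3.72, with an interaction of 2.29 ± 0.33 (adjusted p = 0.000186). Ctla4, an inhibitory receptor, had an interaction of 3.35 ± 0.73 (adjusted p = 0.00377), lost without the libraries rich in the unnamed feature.

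**Figure D3:**
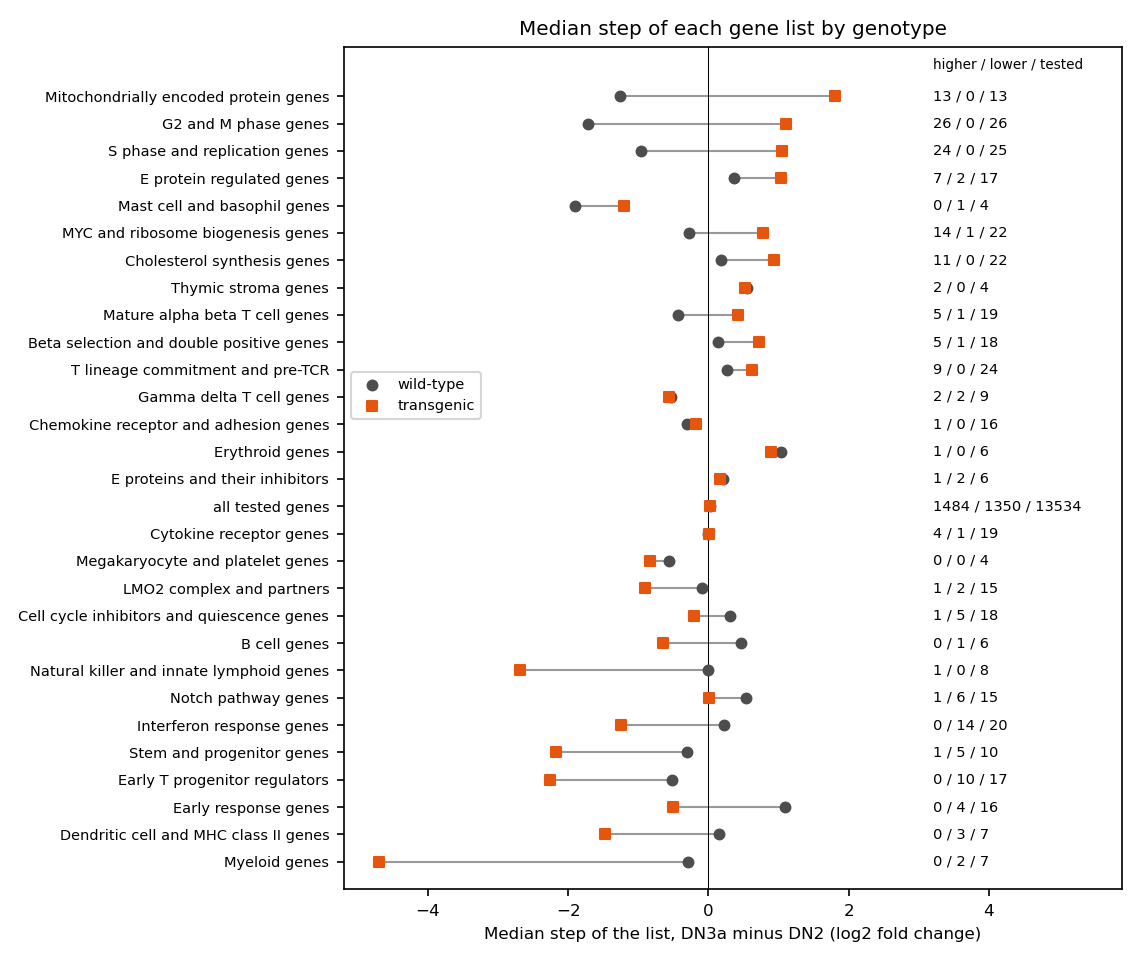
Median step of each gene list (x axis, log2 fold change, DN3a minus DN2) in wild-type (circles) and transgenic cells (squares), 1 row per list, ordered by the median interaction. The numbers at right count members with a higher interaction, with a lower one and tested. The lists of mitochondrially encoded, G2 and M phase, S phase, early response and interferon response genes are among those with medians on opposite sides of 0. Those of early T progenitor regulators, stem and progenitor, interferon response and myeloid genes are among those with a transgenic median far below the wild-type one.

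Regulators of early T progenitors showed the converse pattern. Of 19 listed, 17 were tested, among them Lmo2, the gene of the transgene itself. By the test all 17 fell from DN2 to DN3a in transgenic cells, beside 13.2% of all tested genes. In wild-type cells 5 fell, beside 3.64%. The step was lower in transgenic cells by the test for 10 of 17, beside 9.97% of all tested genes, and higher for none, with median steps of -0.52 and -2.26. Without wild-type DN3a replicate 3 the count was 6. The summed level of 12 myeloid markers moved with this list, at 148 to 184 CPM in transgenic DN2 and 27.3 to 44.3 CPM in the other 3 groups, and its part in the result was not tested. Bcl11a (chr11:24076564-24173558), a transcription factor of lymphoid progenitors, was at 7.52 and 22.9 CPM in wild-type DN2 and 15.9, 14.5 and 21.8 CPM in wild-type DN3a. It was at 31.2, 41.4 and 40.1 CPM in transgenic DN2 and 2.17, 2.52 and 3.21 CPM in transgenic DN3a. Transgenic cells thus held the highest level at DN2 and the lowest at DN3a, and the interaction was -4.01 ± 0.65 (adjusted p = 0.000501). Mef2c, another progenitor factor, was at 11.1 and 8.22 CPM in wild-type DN2, 6.71, 7.42 and 10.4 CPM in wild-type DN3a, 9.43, 14.2 and 18.7 CPM in transgenic DN2 and 0, 0.629 and 0.584 CPM in transgenic DN3a, with an interaction of -4.73 ± 0.77 (adjusted p = 0.000654). Gfi1b, a repressor that acts in erythroid and megakaryocyte cells, gave -4.48 ± 0.79 (adjusted p = 0.000873).

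Spi1, the gene of PU.1, fell in transgenic cells from 84.5, 68.4 and 74.4 CPM to 2.17, 1.01 and 0.681 CPM and in wild-type cells had 14 and 3.61 CPM in DN2 and 1.16, 0.396 and 4.78 CPM in DN3a. Its interaction of -3.90 ± 0.95 (adjusted p = 0.00741) became -2.49 without wild-type DN3a replicate 3 (adjusted p = 0.0569). Lyl1 and Lmo2, members of the LMO2 complex, were not called, with Lyl1 at 1.65 ± 0.71 (adjusted p = 0.107), and of 15 genes of that complex and its partners 1 was higher and 2 lower. Cbfa2t3, the corepressor ETO2 that joins the complex, was one of the 2 lower genes, at 153 and 143 CPM and 216, 225 and 169.8 CPM in the wild-type stages and 294, 434 and 361 CPM and 213, 185 and 184 CPM in the transgenic ones. Its interaction was -1.36 ± 0.23 (adjusted p = 0.000714).

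Mycn (chr12:12936093-12941836), the MYC family gene of early progenitors, reversed. It was at 12.4 and 21.8 CPM in wild-type DN2 and 35.9, 47.6 and 26.8 CPM in wild-type DN3a, and at 117, 78.6 and 70.3 CPM in transgenic DN2 and 21.8, 23.1 and 17.2 CPM in transgenic DN3a. The interaction was -3.21 ± 0.44 (adjusted p = 0.000136), opposite in sign to the 14 ribosome biogenesis genes above. Of 10 tested stem and progenitor genes, 5 were lower and 1, Slamf1, higher, and the 5 became 2 without transgenic DN2 replicate 3, wild-type DN3a replicate 3, transgenic DN3a replicate 3 or the libraries rich in the unnamed feature, and 3 without transgenic DN3a replicate 2. Over all tested genes 9.97% were lower and 11% higher. Angpt1, a ligand of the receptor TIE2, fell in transgenic cells from 487, 672 and 684 CPM to 104, 79.1 and 76.9 CPM. It was at 59.9 and 60.8 CPM and 42.7, 48.7 and 60.6 CPM in the wild-type stages, with an interaction of -2.58 ± 0.39 (adjusted p = 0.000289). Slamf1, a receptor of the SLAM family, rose by 1.21 in wild-type and 3.54 in transgenic cells, with an interaction of 2.32 ± 0.42 (adjusted p = 0.00103).

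In the Notch pathway, whose signal drives T commitment and is strong at DN3a, 6 of 15 genes were lower, beside 9.97% of all tested genes. Only 1, Ptcra, was higher, beside 11%, and the median interaction was -1.2. Dtx1 (chr5:120680203-120711867), a Notch target, was at 38.8 and 75 CPM in wild-type DN2 and 278, 346 and 149 CPM in wild-type DN3a, and at 208, 220.1 and 179.6 CPM in transgenic DN2 and 213, 231 and 215 CPM in transgenic DN3a. The rise of wild-type cells (2.18 ± 0.33) had no counterpart by the test in transgenic cells (0.12 ± 0.27), where DN2 was already near the DN3a level. The interaction was -2.06 ± 0.42 (adjusted p = 0.0024). Its relative Dtx4 (chr19:12466329-12502179) fell in transgenic cells from 51.9, 43.5 and 63.9 CPM to 19.1, 9.94 and 8.86 CPM, with 26.3 and 16.1 CPM and 44.6, 48.9 and 32.8 CPM in the wild-type stages and an interaction of -3.08 ± 0.44 (adjusted p = 0.000186). Hes1, the Notch-induced repressor, had -1.42 ± 0.32 (adjusted p = 0.00439). Notch1 had an interaction of -1.20 ± 0.48 that was not called (adjusted p = 0.085), and the call of Notch3 (-1.44) was lost without any of 7 of the 11 libraries.

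Of 20 interferon response genes, 14 had a lower interaction, beside 9.97% of all tested genes, and none a higher one. From DN2 to DN3a 11 fell in transgenic cells, beside 13.2% of all genes, while 2 rose in wild-type cells, beside 2.93%. Oas3 (chr5:120753098-120777684), an antiviral oligoadenylate synthetase, was at 18.9 and 9.93 CPM in wild-type DN2, 19, 11.7 and 13.1 CPM in wild-type DN3a, 42.6, 66.7 and 85.2 CPM in transgenic DN2 and 14.6, 10.8 and 13.1 CPM in transgenic DN3a. The high group was transgenic DN2, and the interaction was -2.35 ± 0.46 (adjusted p = 0.00179). Isg15 (chr4:156199424-156200818), whose promoter is printed above, was also highest in transgenic DN2 and went from 65.5, 40.9 and 50.6 CPM to 29.9, 21 and 19.5 CPM in transgenic cells, with 24.4 and 23.8 CPM and 37.5, 28.8 and 27.2 CPM in the wild-type stages. Its interaction was -1.54 ± 0.36 (adjusted p = 0.00595). Irf7, the factor that amplifies the response, gave -1.49 ± 0.31 (adjusted p = 0.00298). The count of 14 was 9 without wild-type DN2 replicate 1 or 2, transgenic DN2 replicate 3, wild-type DN3a replicate 1, transgenic DN3a replicate 3 or the libraries rich in the unnamed feature.

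The 44 genes that rose in wild-type and fell in transgenic cells included genes of varied function, of which 8 were named by rule. Bcl6 (chr16:23965050-23988866), a transcriptional repressor, was at 1.33 and 3.01 CPM in wild-type DN2 and 8.95, 8.31 and 5.05 CPM in wild-type DN3a. In transgenic cells it went from 31.8, 45.6 and 32.1 CPM to 7.28, 5.79 and 3.80 CPM, so that transgenic DN2 stood apart from the other 3 groups. The interaction was -4.49 ± 0.54 (adjusted p = 5.36e-05). Lrp1 (chr10:127538157-127621148), an endocytic receptor, was highest in wild-type DN3a and lowest in transgenic DN3a, with 44.7 and 39.4 CPM in wild-type DN2 and 111, 106 and 121 CPM in wild-type DN3a against 42.9, 69.1 and 73.1 CPM in transgenic DN2 and 9.14, 20 and 11.4 CPM in transgenic DN3a. Its interaction was -3.60 ± 0.49 (adjusted p = 0.000135). Peli2 (chr14:48120777-48281578), a ubiquitin ligase of Toll-like receptor signalling, had the same form, with 14.3 and 11.4 CPM and 33.2, 36.1 and 35.2 CPM in the wild-type stages and 11.7, 24.3 and 17 CPM and 5.27, 5.03 and 4.19 CPM in the transgenic ones. The interaction of Peli2 was -3.30 ± 0.43 (adjusted p = 0.000108).

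Among the others of these 44, Tcp11l2 had an interaction of -2.81 ± 0.32, Fam214b of -3.93 ± 0.55, Ntng2 of -3.20 ± 0.58, Als2cl of -3.21 ± 0.64 and Fam210b of -2.82 ± 0.47. Genes chosen after their values were seen were Mxd4, whose product competes with MYC for MAX, and Il10ra, the interleukin-10 receptor. Mxd4 was at 10.3 and 20 CPM in wild-type DN2 and 59.1, 73.2 and 52 CPM in DN3a, against 26.3, 48.1 and 53.4 CPM in transgenic DN2 and 16.7, 29.3 and 25.9 CPM in DN3a, and its steps within transgenic mice of 0.15, -0.89 and -1.66 did not all have one sign. Il10ra was at 32.6 and 41.9 CPM and 83.9, 90.1 and 59.2 CPM in the wild-type stages and at 250.0, 263 and 254 CPM and 96.6, 100.4 and 91.3 CPM in the transgenic ones. All steps of Il10ra within transgenic mice were downward, at -1.31, -1.52 and -1.39, and its interaction was -2.47 ± 0.33 (adjusted p = 0.000118).

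The 202 genes of the other direction held 17 of the G2, M and S phase genes, and in all 21 members of the lists used here. Those named for the largest pairs of opposite steps were H2-Q2, Pla2g4c, Fbln1, Slc35g1, Ttc39b, Ybx2, Fam72a and Neil3. H2-Q2 (chr17:35342307-35346764), a class Ib gene of the major histocompatibility complex, was at 1.42 and 2.61 CPM in wild-type DN2, 0.179, 0 and 0.46 CPM in wild-type DN3a, 3.86, 3.70 and 1.30 CPM in transgenic DN2 and 18.4, 39.2 and 44.1 CPM in transgenic DN3a. Its interaction of 6.64 ± 0.81 (adjusted p = 6.35e-05) is uncertain as to the gene, because near-identical relatives may share its reads. Pla2g4c, a cytosolic phospholipase, had an interaction of 5.12 ± 0.73 (adjusted p = 0.000186) and Fbln1, an extracellular matrix protein, 3.96 ± 0.67 (adjusted p = 0.00063). Ybx2, a germ cell RNA-binding protein, was at 45.6 and 37.5 CPM and 16.1, 10.5 and 9.56 CPM in the wild-type stages and 2.54, 2.90 and 0.522 CPM and 10.8, 6.79 and 6.23 CPM in the transgenic ones, so it was far lower in transgenic than in wild-type DN2, and the 2 genotypes overlapped in DN3a. Neil3, a DNA glycosylase of dividing cells, had an interaction of 4.13 ± 0.85 (adjusted p = 0.00255). The call of Ttc39b was lost without 1 library, its interaction of 4.45 becoming 1.75 without wild-type DN2 replicate 1 (adjusted p = 0.306), and its 2 wild-type mice differed in sign (-3.00 and 0.46).

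**Figure D4:**
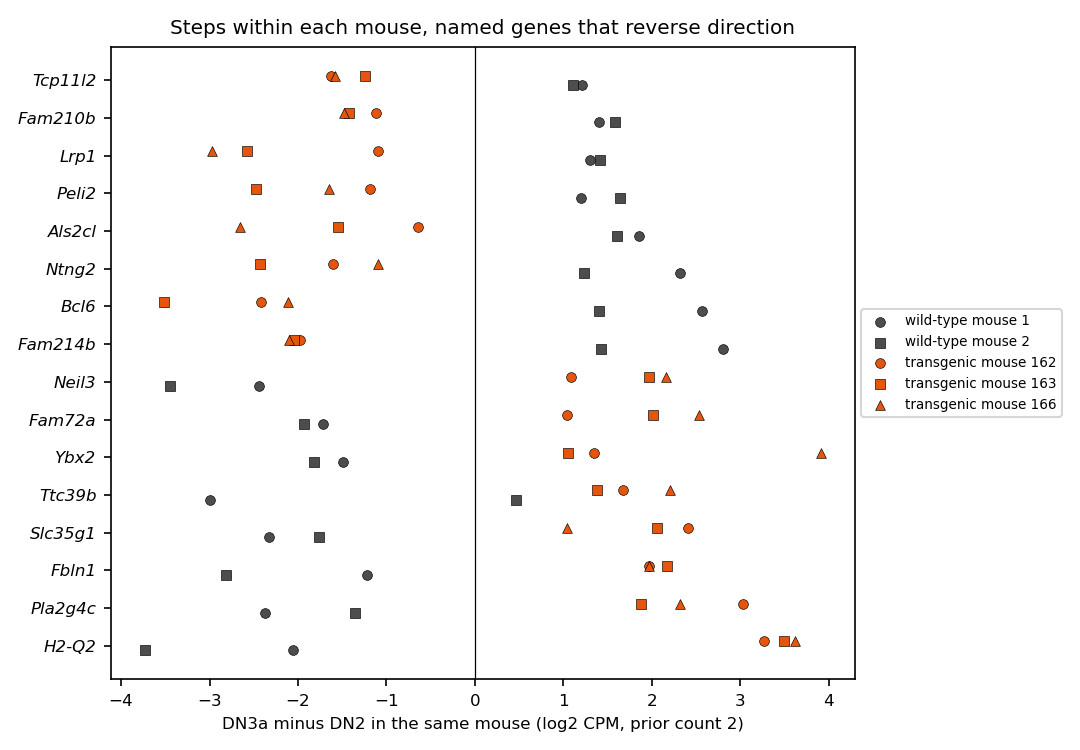
Step from DN2 to DN3a within the same mouse (x axis, difference of log2 CPM with a prior count of 2) for the 16 reversed genes named by rule, 1 row per gene. Grey points are the 2 wild-type mice and orange points the 3 transgenic mice, with symbols marking each mouse. Apart from Ttc39b in wild-type mouse 2, every wild-type point lies on the side of 0 opposite to every transgenic point.

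Some of the largest interactions were not reversals. P2rx7 (chr5:122643927-122692336), an ATP-gated channel, fell in wild-type cells from 8.14 and 7.42 CPM to 0.179, 0.593 and 0.368 CPM. In transgenic cells it was at 71.3, 94.8 and 92 CPM in DN2 and 90, 123 and 119 CPM in DN3a, far above wild-type at both stages, and its interaction was 4.70 ± 0.47 (adjusted p = 1.37e-05). Chd7 (chr4:8690402-8868449), a chromatin remodeller, was at most 4.07 CPM in every young library except those of transgenic DN3a, where it was at 28.2, 37.1 and 37.4 CPM. Its interaction was 4.69 ± 0.82 (adjusted p = 0.00084). Slc40a1, the iron exporter ferroportin, was also highest in transgenic DN3a, at 7.12, 7.92 and 9.15 CPM against at most 1 CPM in the other young libraries. Among the young groups it is measured through the group in which it is high. Its fitted interaction of 5.44 therefore describes it, and no test is given. Tgfb2, a transforming growth factor, had the largest fitted interaction of the named genes at 7.89 ± 1.51 (adjusted p = 0.00153), but its wild-type DN2 levels were 2.56 and 0 CPM and without replicate 1 of that group the interaction was 1.24 (adjusted p = 0.888). The calls of Rhbdl3, Gpr34, Pde8a and Gimap3 were lost without the same library.

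Several of the most negative interactions were in genes with few reads outside transgenic DN2, and myeloid markers were among these. Itgam (chr7:128062640-128118491), the CD11b integrin, was at 1.24 and 1.60 CPM in wild-type DN2, 1.88, 2.27 and 3.03 CPM in wild-type DN3a, 25.7, 25.6 and 37.1 CPM in transgenic DN2 and 1.08, 0.88 and 1.36 CPM in transgenic DN3a. Its interaction was -5.45 ± 0.63 (adjusted p = 4.61e-05), and Lyz2 (lysozyme) gave -3.04 ± 0.49 (adjusted p = 0.000462). The pair were the only called members of 7 tested myeloid genes, where 20.9% of all genes were called. Itgax, the CD11c integrin of dendritic cells, had 486 reads in transgenic DN2 and 2 in transgenic DN3a, a level 245-fold higher in DN2 with a counting interval of 67.4 to 2030. Cd33, a sialic acid-binding receptor, had 253 reads and 1, a 255-fold difference with an interval of 45.4 to 10100. Gna15, a G protein of blood cells, had 436 reads and 1, a 439-fold difference with an interval of 78.5 to 17400. Lrrc25 had 130 reads in transgenic DN2 and 0 in transgenic DN3a, at least 43.7-fold higher when 3 reads over the group stand for 0. These intervals cover counting error at 95% only. Since these genes are measured through the group in which they are high, these values describe them, and no test of their interaction is given.

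Of the 12 myeloid genes, Elane had no read in any of the 4 groups, and Prtn3 none outside transgenic DN2. Mpo, of the same list, had 1956 reads in transgenic DN2 and 1 in transgenic DN3a. In wild-type cells Mpo had 67 reads in DN2 and 0 in DN3a, and its interaction was not called. The 8 mast cell and basophil genes, Kit included, summed to 1290 to 1390 CPM in transgenic DN2 and 522 to 700 CPM in transgenic DN3a, against 63.2 to 450 CPM in wild-type cells, while Ms4a2, Fcer1a and Prss34 had no read in any group. The 12 dendritic cell and MHC class II genes summed to 66.2 to 69.4 CPM in transgenic DN2 and 13.8 to 18.3 CPM in transgenic DN3a, against 49.9 to 65 CPM in wild-type cells. Of this list 3 of 7 tested genes were lower in the interaction, beside 9.97% of all genes. The 3 were H2-DMa, H2-DMb1 and Itgax, and the call of Itgax carries no weight, since it is measured through the group in which it is high. Of those, H2-DMb1, a chaperone of peptide loading, had -3.34 ± 0.62 (adjusted p = 0.00124). Sums over the 19 mature alpha beta T cell genes lay between 2650 and 3230 CPM in all 11 libraries. A sum mostly reflects its most abundant members. The median log2 difference of transgenic from wild-type cells over these genes was 0.61 in DN2 and 2.1 in DN3a. Whether cells of other lineages took part in the differences described above was not tested.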

How the data were processed

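RNA-seq libraries were single-end, made with RNeasy Plus Micro and TruSeq kits, per the labels' protocols. The authors deposited raw counts per gene, for which the submitters' processing notes name featureCounts and the mm10 build, and the aligner, annotation and strand setting are absent from the labels used here. Reads of overlapping, antisense or near-identical genes may therefore be shared. The deposited counts of 17 of 17 single files equalled the combined table. Of 27179 gene IDs, 25275 were named from RefSeq (GRCm38.p6) and 18 from GENCODE.

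Counts were fitted with edgeR 4.0.16 (R 4.3.3) and its quasi-likelihood test over all 17 libraries with 1 mean per group, TMM scaling and filterByExpr (minimum count 10, minimum total 15). The 6 old DN3a libraries entered only scaling, filter and spread, and Benjamini-Hochberg adjustment ran over 13534 genes. CPM are counts scaled by library size and TMM factor, and 1 read was worth 0.088 to 0.139 CPM before scaling. The labels do not say whether replicates are separate sorts, so p-values measure the spread between these samples.

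Members and gene lists were chosen with earlier results of these data known. Named genes were Lmo2, the 10 called genes with the largest interaction in each direction at a mean of 5 CPM or more in the highest group, the 8 genes of each reversal with the largest smaller step, and of each list the 3 called members with the largest interaction and any of its first 2 genes. Cdk1, Cd3d, Irf7, Hes1, Foxm1, Mybl2, E2f8, Mxd4, Il10ra and other genes named only as list members were chosen after their values were seen. Some genes that the rule names are not reported here.

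The labels tie 5 mice to both stages. Deviations from group means correlated between the stages of a mouse at 0.09, 0.19, 0.01, -0.07 and 0.09. With each mouse as a block 2371 genes were called and 312 reversed. On simulated counts for 13205 genes the test recovered 0% of 1.5-fold, 18% of 2-fold, 56% of 4-fold and 84% of 8-fold planted interactions (50 each). No other gene had an interaction there, so far fewer genes differed than the 2834 called in the data. The adjusted threshold was therefore stricter, and these rates do not give the sensitivity in the data. Alternatives used DESeq2 1.42.0 and limma 3.58.1.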

Additional observations from a re-analysis of the deposited data

Results flagged for a closer look

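The step differed between the genotypes by the interaction test for 2834 genes, and for 246 of them both steps were called with opposite signs. An unnamed feature, which no comparison above rests on, took a mean of 10.9% of the reads in transgenic DN2 libraries, above its share in wild-type libraries, and its own interaction of -1.57 was not called (adjusted p = 0.498 by edgeR's quasi-likelihood test).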

How the results depend on the processing

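The counts depended on the tool and the libraries more than the signs did: of the 2834 called genes, 2821 to 2834 were tested in each alternative, and these kept their fitted sign in all of them except for 1 gene, Rhbdl3, which was at -1.66 without wild-type DN2 replicate 1 (adjusted p = 0.716) and between -1.66 and 6.9 over all single libraries left out. DESeq2 gave 418 reversed genes and 1374 genes with a called wild-type step. Limma voom with quality weights called 4571 interactions (2310 higher, 2261 lower), 629 reversals, 1644 wild-type and 5874 transgenic steps. With the replicate number as a block, 3362 interactions, 486 reversals and 1379 wild-type steps were called, and with each mouse as a block 2371 interactions and 312 reversals, with 9 of the 116 called genes among those named losing their call. With the library letter as a covariate there were 440 reversals and 1514 wild-type steps. Without the libraries over 8% of the unnamed feature, a setting chosen after seeing the data that leaves 1 transgenic DN2 library assumed to vary like the others, 1304 interactions were called (707 higher, 597 lower), with 77 reversals and 1720 transgenic steps. Leaving out 1 library at a time gave 1654 to 3597 interactions (864 to 1894 higher, 790 to 1716 lower), 0 to 394 reversals, 10 to 1687 wild-type steps and 2511 to 3810 transgenic steps. The lowest counts of interactions, reversals and wild-type steps came without wild-type DN2 replicate 1. The smallest interaction called was 0.57. On simulated counts 18% of 2-fold interactions were recovered, but far fewer genes differed there than in the data, so this rate does not apply to them.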

Other observations

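Genes of the gamma delta lineage did not move together. Of the 9 tested of 14, 2 were higher in the interaction and 2 lower, beside 11% and 9.97% of all tested genes. Sox13, a transcription factor of gamma delta cells, had 1.07 ± 0.27 (adjusted p = 0.00822) and rose in transgenic cells only by the test. Cd163l1, a scavenger receptor of gamma delta cells, was at 89.5 and 73.8 CPM in wild-type DN2, 57.3, 46.6 and 23.1 CPM in wild-type DN3a, 41.7, 38 and 12.4 CPM in transgenic DN2 and 129, 252 and 249.6 CPM in transgenic DN3a, with an interaction of 3.72 ± 0.97 (adjusted p = 0.0116) that was lost without the 3 libraries rich in the unnamed feature. Blk, a SRC family kinase of B and gamma delta cells, went the other way at -2.14 ± 0.38 (adjusted p = 0.00084). Gpr183, an oxysterol receptor, had -5.25 ± 1.15 (adjusted p = 0.0038), with a wild-type step from 0 and 0.501 CPM to 8.32, 6.63 and 3.68 CPM and a transgenic step that was not called.

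Early response genes had a median interaction of -1.73 over 16 tested, but the replicates spread widely and 4 were called, all lower, beside 9.97% of all genes. Jun was at 78.5, 355 and 282 CPM in transgenic DN2 and 75.4, 58 and 369 CPM in wild-type DN3a, and the calls of Jun, Egr1 and Btg2 were each lost without wild-type DN2 replicate 1 and at least 1 other library. The list's count of 4 became 0 without wild-type DN2 replicate 1, 1 without wild-type DN2 replicate 2, transgenic DN2 replicate 2 or transgenic DN3a replicates 2 or 3, and 2 without transgenic DN2 replicate 3, wild-type DN3a replicate 3 or the libraries rich in the unnamed feature. Of 4 tested megakaryocyte and platelet genes none was called in the interaction, although the list summed to 655 to 718 CPM in transgenic DN2 and 356 to 475 CPM in transgenic DN3a against 55.2 to 152 CPM in wild-type cells. For the lists that follow, the shares over all tested genes were 20.9% called, 11% higher and 9.97% lower. Of 6 tested B cell genes 1, Blk, was called. Of 16 chemokine receptor and adhesion genes 1, Itgb2, was called (1.07, losing its call with each mouse as a block). Of 18 beta selection and double positive genes 5 were higher and 1 lower. Mature alpha beta T cell genes numbered 19, of which 5 were higher, among them Cd2 (3.92, losing its call without wild-type DN2 replicate 1), and 1, Cd52, was lower at -3.51 ± 0.41 (adjusted p = 4.83e-05). Of 4 tested thymic stroma genes 2 were higher, Epcam and Ccl25, and of 4 tested mast cell genes 1, Kit, was lower, the calls of Ccl25 and Kit each being lost without any of 4 single libraries.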
